A study of Arabidopsis thaliana with 12 samples.

Results

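The early response of wild-type Arabidopsis to UV-C was followed in 6 of the 12 RNA-seq libraries of the study, 3 from non-treated rosettes and 3 from rosettes that had received 100 mJ cm-2 of UV-C and were taken 30 min later. The question was which nuclear genes had changed by this time. Nuclear genes are those with locus names from AT1G to AT5G, and 20021 of the 27439 that encode proteins had enough reads to be tested (5 or more in no fewer than 3 of the 12 libraries). The wild type was Col-0 gl1, so treated and non-treated plants alike carried the *gl1* mutation, which removes most leaf hairs, and plants were 4 weeks old and grown under 8 h days. Each of the 3 biological replicates per group pooled at least 4 whole rosettes. The other 6 libraries came from the chloroplast movement mutant *jac1* in the same background, non-treated and UV-C treated, and serve here to estimate the spread between replicates and for a short comparison. The hour of harvest and whether non-treated rosettes were moved like the treated ones are not given in the sources used here.

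UV-C is the short-wave ultraviolet emitted by germicidal lamps. It is absorbed by nucleic acids and proteins, joins neighbouring pyrimidines in DNA, and in green leaves leads to reactive oxygen species from the chloroplast. Plants answer many injuries with a fast general programme, in which calcium enters the cytosol and is read by calmodulin-like proteins and calcium-dependent kinases, MAP kinases are activated, and genes for transcription factors of the ZAT, ERF, WRKY and CBF families are switched on before the genes that they control. Hormones of defence, above all jasmonate and ethylene, are made within the same period.

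After UV-C, 1330 of the 20021 genes (6.64%) had higher expression and 454 (2.27%) had lower expression. These differentially expressed genes (DEGs) changed by more than 1 in log2 fold change (FC), in either direction, and passed a Benjamini-Hochberg adjusted p of 0.01 in the quasi-likelihood test of edgeR, which is two-sided and was adjusted over the whole set. The 3 treated libraries did not overlap with the 3 non-treated ones in 1325 of the 1330 genes that rose and in all 454 that fell. Since these genes were called from the same libraries, such separation largely follows from the call and adds no support to it. The share over all genes tested is not given here. Large changes were nearly all increases, since 315 genes rose by more than 3 on the log2 scale and 15 fell by as much, and beyond a log2 change of 5 there were 107 that rose and 2 that fell. These counts use fitted values, and 78 of the 315 and 44 of the 107 had at most 3 reads in every non-treated library, so that their fold change has only a lower bound; without them 237 and 63 remained. The median log2 FC was 1.83 for the genes that rose, -1.29 for those that fell and -0.00014 over all genes tested. The first principal component of the 6 libraries, which held 78.2% of the variance, separated treated from non-treated rosettes.

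The share of genes that rose was largest where expression before UV-C was low. Expression is given as CPM, the reads of a gene scaled to the sum over nuclear coding genes of its library. Of the 2919 genes with less than 1 CPM in the non-treated wild type, 18.6% rose, against 9.62% of the 5529 genes between 1 and 10 CPM, 2.29% of the 9973 genes between 10 and 100 CPM and 1.75% of the 1600 genes over 100 CPM. In numbers, 542 of the increases started below 1 CPM, 532 between 1 and 10 CPM, 228 between 10 and 100 CPM and 28 above. For decreases the shares at these 4 levels were 0.719%, 3.33%, 2.02% and 3%, although a fall is harder to detect in a gene with few reads. In 82 of the genes that rose, no non-treated library had more than 3 reads, so for each of these that is named a lower bound is given in place of a fold change.

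Nuclear coding genes received 34266931 to 40167750 reads per non-treated library and 18634428 to 21923099 per treated library. In the same libraries the share of reads on chloroplast genes was 0.0183% ± 0.0017 before and 2.06% ± 0.252 after UV-C (SD, n = 3), and that on nuclear ribosomal RNA genes 0.00997% ± 0.00119 and 2.45% ± 0.107, and that on mitochondrial genes 0.00695% ± 0.000429 and 0.483% ± 0.0668, each with p = 0.1 in an exact two-sided permutation test, the smallest that 3 against 3 can give. Values were therefore scaled on nuclear coding genes alone, and the part of these shares in the nuclear results was not tested. Scaled by library size without TMM factors, the median of all genes moved to -0.12 and the split changed to 1134 higher and 657 lower, 63.3% higher in place of 74.6%. The libraries had the marks of leaf tissue: the rosette mesophyll markers summed to 39201 to 45084 CPM before and 33399 to 36443 CPM after UV-C, while 4 of 4 seed markers and 4 of 5 root markers had too few reads to test, the exception being *PYK10* with 313 to 384 CPM before and 297 to 339 CPM after UV-C. The seed storage gene *SESA1*, outside the marker list, was called higher, with 0 reads before and 0.182, 0.585 and 0.909 CPM after UV-C. Epidermal markers, 4 of 4 tested, summed to 935 to 983 CPM before and 532 to 620 CPM after UV-C. Guard cell markers, 5 of 5 tested, summed to 2689 to 3241 CPM before and 4386 to 5671 CPM after, a sum made up nearly wholly of *TGG1* (log2 FC 0.78, not called), while the other 4 had log2 FC from -1.24 to -0.73 and *HT1* was called lower. Their part in the results was not tested, and in whole rosettes fewer cells of a type and less RNA per cell cannot be told apart. *YLS8*, a common reference gene, had 70.0, 72.3 and 69.8 CPM before and 75.7, 79.5 and 75.1 CPM after UV-C, and was not called.

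The largest single increases, beside those of *ERF13*, *AT3G01830*, *AT5G21960* and *RAP2.6* given with their families, were spread over several functions. *DLAH*, which encodes a lipase, went from 0, 0.144 and 0.0527 CPM to 14.3, 11.2 and 13.9 CPM (log2 FC 7.59, standard error 0.32), *DIP2* rose by 7.27 and *AT1G30190* by 7.16. *GRX480*, a glutaredoxin that binds TGA factors of salicylic acid responses, went from 0.219, 0.191 and 0.369 CPM to 39.5, 23.7 and 36.7 CPM. *AT5G09876* and *AT1G32910* had at most 3 reads per non-treated library and were at least 53.4-fold and 26.2-fold higher. In each of these genes the groups were far apart, and groups that do not overlap were part of the rule that chose them. Beside clock genes, the largest decreases were those of *AT1G07050* (-4.46), *AT2G23910* (-4.09), *AT4G34950* (-3.75), *AT4G16146* (-3.68), *AT1G17665* (-3.55) and *AT2G15042* (-3.29). All of these were also lower in non-treated *jac1* than in the non-treated wild type. The means (n = 3) ran from 0.661 against 9.90 CPM for *AT1G07050* to 9.09 against 12.9 CPM for *AT2G15042*.

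Many genes that read calcium signals rose. Of 31 tested genes in a chosen list of calmodulin-like proteins, calcium-dependent kinases and calmodulin-binding regulators, 18 (58.1%) rose and 0 fell, with a median log2 FC of 1.94. In the whole annotated EF-hand and calmodulin-like family 15 of 51 rose (29.4%) and 1 fell, with a median of 0.11. Over all genes tested 6.64% rose and 2.27% fell. *AT4G27280*, which encodes an EF-hand protein, had 6.04, 10.3 and 3.29 CPM in non-treated and 414, 471 and 405 CPM in treated rosettes, so the groups lay far apart (log2 FC 6.03, standard error 0.35, adjusted p = 1.44e-08). The calmodulin-like gene *CML37* went from 0.219, 0.837 and 0.369 CPM to 54.6, 58.5 and 53.9 CPM (log2 FC 6.87, standard error 0.22, adjusted p = 4.98e-11). *PBP1*, whose protein binds the auxin-transport kinase PINOID in a calcium-dependent way, rose by 6.29, and the EF-hand gene *AT3G29000* by 6.85. Among kinases, *CPK28* rose by 2.64 and *CPK32* by 1.81 on the log2 scale. *SARD1* and *CBP60G*, regulators of salicylic acid synthesis, rose by 4.77 and 1.94. *AT3G01830* had the largest log2 FC of the list, 7.51, but shares 58.1% of its exon bases with an overlapping gene, and reads in the shared part were not counted.

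Calcium channels and pumps rose in 3 of 9 cases, with a median log2 FC of -0.04. *CNGC19*, a cyclic nucleotide gated channel, had 0.219, 0.335 and 0.158 CPM in non-treated and 19.9, 13.4 and 17.9 CPM in treated rosettes (log2 FC 6.13, standard error 0.24, adjusted p = 2.66e-10). The calcium pump genes *ACA13* and *ACA1* rose by 5.50 and 2.05, from very different starting levels of 0.183 ± 0.147 and 46.4 ± 4.67 CPM (SD, n = 3). The 3 CAMTA genes, whose proteins bind calmodulin and the rapid stress response element, were not called by edgeR, although 2 had an unadjusted p under 0.05, with log2 FC of 0.50 for *CAMTA3*, 0.10 for *CAMTA2* and -0.21 for *CAMTA1*. With 6.64% of all genes higher and 2.27% lower, a list of 3 may hold no call without standing apart.

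MAP kinase genes rose selectively. Of 25 tested members of the cascade with their phosphatases and substrates, 7 (28%) rose and 0 fell, and the median log2 FC was 0.19. *MPK3*, a MAP kinase activated by wounding, pathogens and reactive oxygen, had 58.0, 75.6 and 60.4 CPM before and 449, 418 and 440 CPM after UV-C (log2 FC 2.75, standard error 0.12, adjusted p = 9.39e-10). Its partners in many responses, *MPK6* and *MPK4*, were not called: *MPK6* had 45.1, 42.8 and 40.0 CPM before and 37.2, 40.0 and 39.3 CPM after UV-C. Upstream kinases *MKK9* and *MKK4* rose by 3.01 and 1.53. *OXI1*, a kinase of the oxidative burst, rose from 0.110, 0.191 and 0.237 CPM to 15.5, 11.9 and 13.3 CPM (log2 FC 6.24, standard error 0.25). The MPK4 substrate gene *MKS1* and the phosphatase gene *AP2C1*, whose product inactivates MAP kinases, rose by 2.29 and 1.95, and *MPK11* by 4.18.

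**Figure D1:**
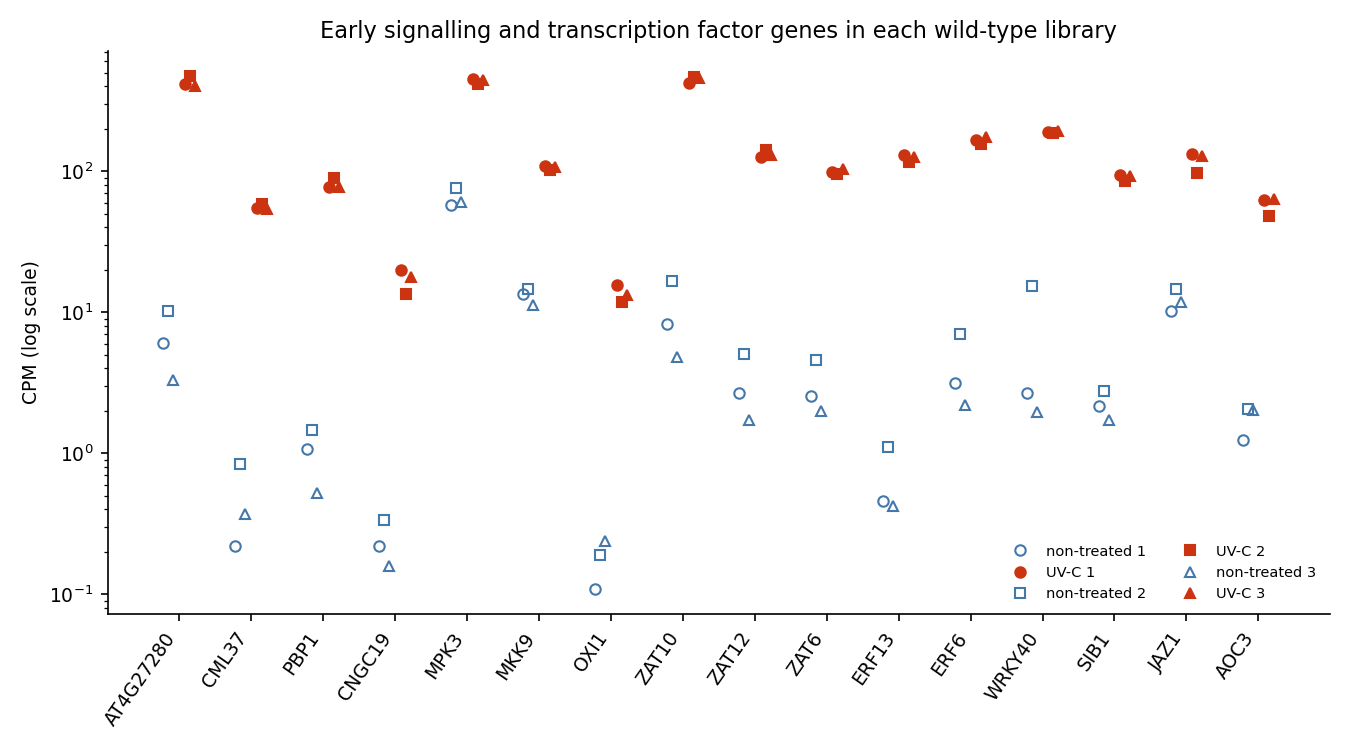
CPM of 16 early genes in each of the 6 wild-type libraries, on a log scale; open blue symbols are non-treated and filled red symbols UV-C treated rosettes, with 1 symbol shape per replicate number. The groups are apart in every gene, and non-treated replicate 2 (square) is the highest non-treated library in most of them, for instance *ZAT10* at 16.6 CPM against 8.25 and 4.82 CPM.

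Zinc finger genes of the ZAT and AZF group, repressors that are switched on by cold, wounding and oxidants, rose in 10 of 13 cases with a median log2 FC of 4.65, or 3.35 with the 2 genes at 3 reads or fewer set to their lower bounds. *ZAT10* went from 8.25, 16.6 and 4.82 CPM to 424, 469 and 457 CPM (log2 FC 5.50, standard error 0.37, adjusted p = 6.07e-08). *ZAT12* reached 126, 142 and 131 CPM from 2.66, 5.07 and 1.71 CPM, a log2 FC of 5.39, and *ZAT6* rose by 5.03. In *ZAT11* no non-treated library had more than 3 reads, and the lowest treated library was at least 92.2-fold higher than the level of 3 reads. The 3 AZF genes rose less, by 3.35 for *AZF1*, 2.79 for *AZF2* and 2.17 for *AZF3*. The mRNA-binding tandem zinc finger genes *SZF1* and *SZF2*, another class, also rose, *SZF1* from 28.9, 64.0 and 20.8 CPM to 210, 206 and 230 CPM.

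Ethylene response factors (ERFs) of group IX bind GCC boxes of defence genes, and 8 of 10 tested rose, with a median of 3.88. *ERF13* had one of the largest increases of any gene, from 0.461, 1.10 and 0.421 CPM to 130, 117 and 126 CPM (log2 FC 7.54, standard error 0.22, adjusted p = 2.61e-11). *ERF6* and *ERF5*, phosphorylated by MPK3 and MPK6, rose by 5.33 and 4.95, and *ERF104*, an MPK6 substrate, by 3.57. Of the 7 ERFs of group VIII, which carry the EAR repressor motif, 3 rose: *ERF11* by 5.66, *ERF4* by 2.80 and *ERF12* from 0.724, 0.741 and 1 CPM to 2.82, 2.11 and 2.03 CPM. In group X, *RAP2.6*, a factor of wound responses, rose from 0, 0.0478 and 0.105 CPM to 5.28, 8.73 and 6.90 CPM.

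Members of the CBF and DREB group moved in both directions, 12 of 21 up and 3 down, with a median of 1.88. The cold regulators *CBF1*, *CBF2* and *CBF3*, which stand side by side on chromosome 4, rose by 2.40, 2.63 and 2.70 without any cold treatment, from at most 7.75 CPM in a non-treated library to at most 28.6 CPM in a treated one. Much larger increases were those of *ORA47*, an activator of jasmonate synthesis genes (2.08, 4.33 and 1.58 CPM before, 70.5, 48.5 and 73.7 CPM after; log2 FC 4.58), and of *AT5G21960* (0.110, 0.144 and 0.105 CPM before, 17.9, 13.5 and 19.6 CPM after; log2 FC 7.10). *RAP2.4*, which is light-regulated, fell from 128, 155 and 133 CPM to 55.1, 46.9 and 56.2 CPM (log2 FC -1.40, standard error 0.10). *TINY2* fell by 1.80.

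WRKY genes, which encode factors of pathogen and wound responses, rose in 15 of 60 cases (25%) and fell in 1, with a median of 0.35. *WRKY46* went from 1.10, 2.51 and 1.84 CPM to 122, 111 and 121 CPM (log2 FC 6.03, standard error 0.24). *WRKY40*, a repressor of basal defence, was at 189, 186 and 193 CPM after UV-C in all 3 replicates but at 2.68, 15.2 and 1.98 CPM before, so its error was larger (log2 FC 4.83, standard error 0.63, adjusted p = 3.17e-05). *WRKY70*, a target of salicylic acid, rose by 4.40 and *WRKY18* by 4.28. The 1 that fell was *WRKY3*, by 1.09.

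Over 14 transcription factor families recognised by their annotation, those above included, 97 of 734 tested members rose and 28 fell. Over all genes tested 6.64% rose and 2.27% fell. The share that rose differed between families, from 30.8% of AP2/ERF genes to 0 of 15 TCP genes. It was below that over all genes also for the bHLH (5.77%), homeobox (5.63%), GRAS (3.23%) and GATA (3.03%) families. In the stress NAC list 9 of 21 rose, led by *NAC061* (3.75) and *NAC090* (3.23), and *ATAF2*, a NAC gene of wound and defence responses, rose from 18.8, 18.4 and 16.3 CPM to 158, 128 and 159 CPM. In a chosen list of stress and phenylpropanoid R2R3-MYB genes 9 of 23 tested rose and 3 fell. Over the whole annotated MYB family 8 of 101 rose (7.92%, near the 6.64% over all genes) and 6 fell (5.94%), with a median of 0.12. *MYB15*, a lignin and cold regulator, rose by 5.38 and *MYB77* by 3.08. *MYB111*, an activator of flavonol synthesis, fell from 3.49, 4.26 and 4.45 CPM to 0.455, 0.630 and 0.428 CPM (log2 FC -2.99). Of 20 B-box genes 6 rose and 6 fell, with *BBX32* up by 4.32 and *BBX8* down by 2.37, but without non-treated replicate 1 only 3 were called higher. Among heat shock factors 5 of 18 rose, the repressor-class gene *HSFB2A* most (3.13). Of 13 chaperone genes 1 rose, *HSP18.2* (2.16), a share of 7.69% against 6.64% over all genes.

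**Figure D2:**
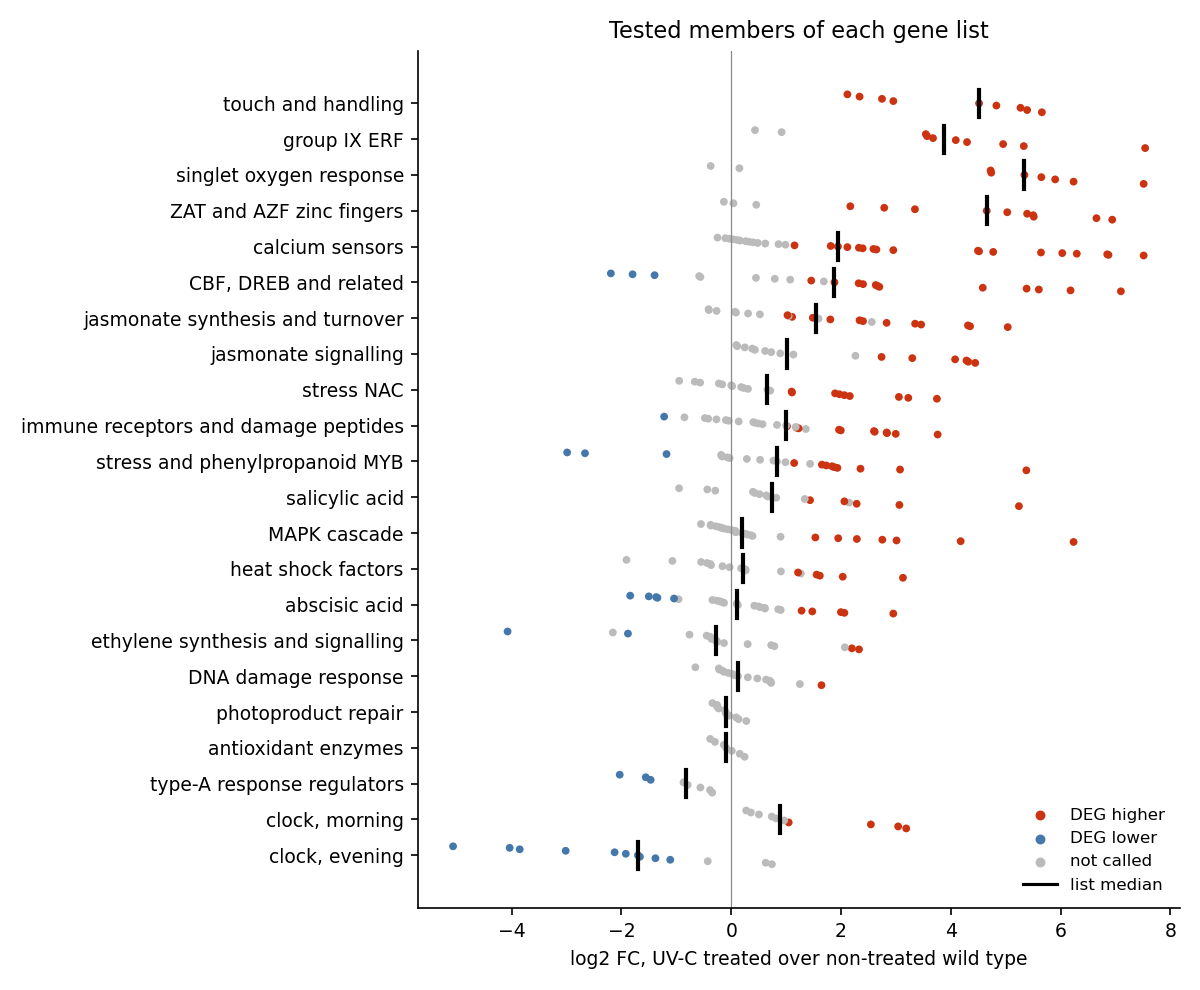
log2 FC of each tested member of 22 gene lists, 1 point per gene; red points are DEGs that rose, blue points DEGs that fell and grey points genes not called, and the black bar is the median of the list. The medians of the touch, group IX ERF, singlet oxygen and ZAT lists lie above 3.8, those of the repair and antioxidant lists lie between -0.2 and 0, and that of the evening clock list is -1.70; fitted values are drawn also for genes whose non-treated libraries had at most 3 reads.

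Genes known as reporters of singlet oxygen, the reactive oxygen species made by excited chlorophyll, rose in 7 of 9 cases with a median of 5.34; *OXI1* and *AT3G01830* belong to this list too. *BAP1* went from 0.593, 1.77 and 0.395 CPM to 55.6, 59.4 and 51.5 CPM (log2 FC 5.90, standard error 0.26), and *SIB1*, which encodes a sigma factor binding protein of the chloroplast and nucleus, from 2.15, 2.77 and 1.71 CPM to 94.0, 84.8 and 92.0 CPM (log2 FC 5.34, standard error 0.19). *OM66*, for a protein of the outer mitochondrial membrane, rose by 4.73. In the list of alternative oxidase and other genes of mitochondrial stress 1 of 6 tested rose, with a highest log2 FC of 4.73 and a median of 0.58. The 2 members not called were *EX1* and *EX2*, the chloroplast proteins through which the singlet oxygen signal is known to pass, with log2 FC of -0.37 and 0.15. Of the 4 NADPH oxidase genes tested 2 rose, *RBOHC* by 1.10 and *RBOHD* from 45.9, 54.4 and 51.4 CPM to 167, 141 and 189 CPM (log2 FC 1.71). The call of *RBOHC* was lost without treated replicate 1 (0.94), with the replicate block by library-name number (1.17) and with library size scaling (0.98). Of 7 catalase, ascorbate peroxidase and superoxide dismutase genes 0 were called, although 3 had an unadjusted p under 0.05 in the same edgeR test, and their log2 FC lay between -0.38 and 0.24. Over all genes 6.64% rose and 2.27% fell, so a list of this length may hold no call without standing apart.

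Genes of jasmonate synthesis and turnover rose in 12 of 22 cases, with a median of 1.54. *AOC3*, an allene oxide cyclase, went from 1.25, 2.06 and 2.03 CPM to 62.1, 48.4 and 63.6 CPM (log2 FC 5.04, standard error 0.22), the lipoxygenase gene *LOX4* rose by 3.35 and *OPCL1*, which activates precursors of the hormone in the peroxisome, by 2.83. Enzymes that inactivate the hormone rose as well, *CYP94C1* by 4.31 and *ST2A* by 3.46. Among 16 signalling genes 6 rose, all of them annotated as jasmonate ZIM-domain (JAZ) proteins, which repress the response: *JAZ7* by 4.44, *JAZ5* by 4.32, *JAZ8* by 4.29, *AT3G22275* by 4.08, *JAZ1* by 3.30 and *JAZ10* by 2.74. *JAZ1* had 10.2, 14.5 and 11.8 CPM before and 133, 97.6 and 129 CPM after UV-C. *MYC2*, the factor that these repressors bind, has 98.5% of its exon bases in common with an overlapping gene and 0 reads in all 12 libraries.

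Other hormone lists held smaller or mixed changes. For ethylene, 2 of 18 rose and 2 fell, with a median of -0.28. The synthase genes *ACS6* (2.33) and *ACS7* rose, and *EBF2*, which marks the ethylene factor EIN3 for degradation, fell from 81.9, 83.5 and 75.4 CPM to 23.1, 21.3 and 20.9 CPM (log2 FC -1.88). For salicylic acid, 5 of 16 rose, among them the NPR1 interactor gene *NIMIN2* (3.06), the defence gene *NDR1* (2.29) and the receptor gene *NPR3* (2.06), whereas the synthase gene *ICS1* (log2 FC 0.40) was not called. In the abscisic acid list 5 of 26 rose and 5 fell, or 3 fell without treated replicate 3 and with the replicate block by library-name number: *CYP707A3*, which breaks the hormone down, rose by 2.95, while the response gene *RAB18* fell and the cold and drought gene *COR15A* rose. Type-A response regulators, early targets of cytokinin, fell in 3 of 8 cases and rose in 0, with *ARR6* at 60.7, 90.7 and 65.6 CPM before and 19.9, 18.5 and 14.5 CPM after UV-C (log2 FC -2.03).

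Genes of immune signalling rose in 11 of 27 cases and fell in 1, with a median log2 FC of 1. *NHL3*, a membrane protein of pathogen responses, went from 18.3, 33.9 and 18.0 CPM to 187, 187 and 186 CPM, and the secretion syntaxin gene *SYP122* rose by 2.83. The damage peptide precursor gene *PROPEP3* rose by 3.76 and the receptor gene *PEPR2* by 2.60. The ubiquitin ligase genes *ATL31* and *PUB23* rose by 3.77 and 3.03, in a chosen list in which 5 of 6 were called. Over the whole annotated RING and U-box ligase family 23 of 257 rose (8.95%) and 9 fell (3.5%), with a median of -0.03. Over all genes tested 6.64% rose and 2.27% fell. *PBL1*, a receptor-like cytoplasmic kinase gene, fell by 1.22. A run of 6 neighbouring genes on chromosome 1, from *AT1G72900* to *AT1G72950* (27432178 to 27445997 in the files' coordinates), rose without a gap, by 2.40 to 4.73. Its members encode proteins with a Toll/interleukin-1 receptor domain, and the largest change, that of *AT1G72920*, was from 3.18, 7.08 and 3.21 CPM to 113, 123 and 123 CPM. Reads that fit several of these related genes were not counted.

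Genes known to rise within minutes of touching or handling a plant rose in 9 of 9 cases, with a median of 4.51, or 2.95 with *CML39*, which had at most 3 reads per non-treated library, set to its lower bound; *ERF11*, *ZAT12* and *WRKY40* are among them. *XTH22* (also *TCH4*), an enzyme that recuts wall xyloglucan, went from 7.11, 18.2 and 4.50 CPM to 350, 449 and 353 CPM (log2 FC 5.27), and the calmodulin-like gene *CML12* (*TCH3*) rose by 2.95. Over the whole xyloglucan family 7 of 20 rose and 0 fell, with *XTH18* up by 6.62. The summed level of the 9 genes was 91.7, 168.8 and 90.8 CPM in non-treated rosettes and 1364, 1413 and 1371 CPM after UV-C, so the treated libraries lay close together and 1 non-treated library stood above the other 2. Non-treated replicate 2 was the highest non-treated library in 9 of these 9 genes, in 23 of the 31 calcium sensor genes and in 58.1% of the 315 genes that rose by more than 3 (67.1% without those at 3 reads or fewer), against 31.5% of all genes tested. The part of handling in these increases was not tested. Without this library 9 of the 9 touch genes, 20 calcium sensor genes, 9 ZAT and AZF genes and 8 group IX ERFs rose.

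**Figure D3:**
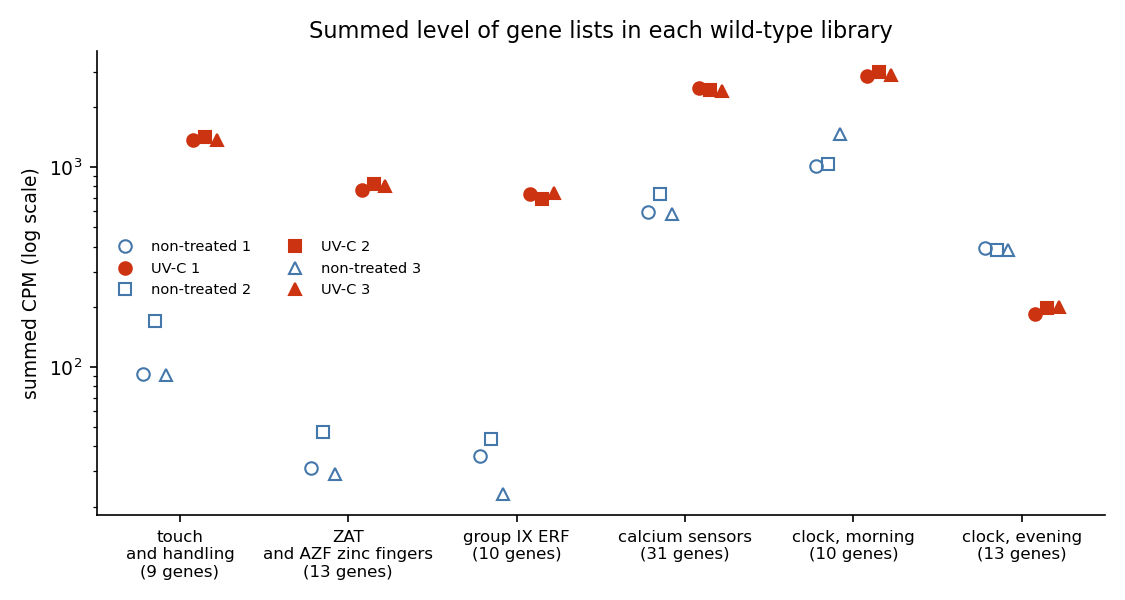
Summed CPM of the tested members of 6 gene lists in each wild-type library, on a log scale, with open blue symbols for non-treated and filled red symbols for treated rosettes and 1 shape per replicate number. The touch genes sum to 90.8 to 168.8 CPM before and 1364 to 1413 CPM after UV-C, and the evening clock genes fall from 384 to 395 CPM to 184 to 199 CPM.

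Of 11 photolyase, excision repair and bypass polymerase genes, which act on UV damage itself, 0 were DEGs at 30 min, against 6.64% higher and 2.27% lower over all genes, so that a list of this length may hold none without standing apart. Their log2 FC ran from -0.34 to 0.27; *UVR2*, the photolyase for cyclobutane dimers, had 7.05, 6.58 and 9.11 CPM before and 8.83, 8.77 and 9.89 CPM after UV-C. At an unadjusted p under 0.05, without the limit on size, 5 of the 11 differed in the same edgeR test. DESeq2 also called 0 of these repair genes, 0 of the antioxidant genes and 0 of the CAMTA genes. In the DNA damage list 1 of 17 rose (5.88%, near the 6.64% over all genes), the cell cycle inhibitor gene *SMR4* (1.64). Its call was lost without non-treated replicate 1 (1.49), non-treated replicate 2 (1.47) or treated replicate 2 (1.49). With the replicate block by library-name number it was lost too (1.44). The master regulator gene *SOG1* had a log2 FC of -0.22. In the UV-B list, *ELIP2*, an early light-induced protein of the thylakoid, rose from 0.834, 0.885 and 2.16 CPM to 21.2, 13.4 and 15.6 CPM (log2 FC 3.72). The UV-B receptor gene *UVR8* (log2 FC -0.56) and *HY5* (0.51) were not called, and *CHS*, the first enzyme of flavonoid synthesis, fell from 55.8, 68.8 and 73.6 CPM to 31.9, 25.3 and 39.0 CPM (log2 FC -1.05), a call lost without non-treated replicate 3 (-0.96) or treated replicate 2 (-0.90).

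Among clock genes with an afternoon or evening peak 10 of 13 fell and 0 rose (median -1.70), and several of the largest decreases of all genes were among them. *ELF4*, of the evening complex, had 7.33, 7.82 and 7.56 CPM before and 0.319, 0.270 and 0.0535 CPM after UV-C. *TOC1*, a core repressor, went from 90.7, 85.9 and 89.8 CPM to 23.2, 18.6 and 19.3 CPM (log2 FC -2.12, standard error 0.09, adjusted p = 3.99e-10), and *PRR5* from 13.5, 13.5 and 14.6 CPM to 0.956, 0.720 and 1.23 CPM (log2 FC -3.85, standard error 0.19). *FKF1*, a blue light receptor, fell by 4.04, and *GI* was not called at 0.241, 0.191 and 1.19 CPM before and 0.910, 0.765 and 0.748 CPM after UV-C, although without non-treated replicate 3 it was called higher (1.88). Of 10 morning genes 4 rose, *LNK2* by 3.19, *LNK1* by 3.04, *PRR7* by 2.54 and *CCA1* by 1.05. Non-treated replicate 3 was the highest non-treated library in 9 of these 10 genes (*CCA1* 113, 132 and 291 CPM), and without it 7 of them were called. The call of *CCA1* was lost without non-treated replicate 1 (0.81), non-treated replicate 2 (0.88) or treated replicate 3 (1.03). It was also lost with library size scaling (0.93) and with only the 6 wild-type samples in the edgeR fit (1.05, adjusted p = 0.0149). Some evening genes were also low without UV-C in *jac1*. In non-treated *jac1*, mean CPM (n = 3) was 0.438 for *ELF4*, 0.938 for *PRR5* and 0.0177 for *FKF1*. In the non-treated wild type the means were 7.57, 13.9 and 1.89 CPM. The *jac1* levels of the other evening genes are not given here. The hour of harvest of each group is not given in the sources used here, and its part was not tested. Outside the clock, genes that fell included *EXPA16*, which encodes a wall-loosening expansin (by 2.01), *AT2G21210* of the SAUR family (by 2.46), the metallothionein gene *MT2A* (621, 620 and 528 CPM before, 189, 232 and 191 CPM after) and the aldolase gene *FBA5* (by 1.71). The largest losses in CPM also took in *GRP-3*, a glycine-rich protein (log2 FC -1.08), *OEP6* of the chloroplast envelope (-1.31), the germin-like *GER3* (-1.47) and *RVE2*, a MYB-like gene related to the clock genes, which fell from 322, 357 and 384 CPM to 83.9, 97.8 and 80.9 CPM. In CPM the 10 largest gains were all genes of light-harvesting proteins, led by *CAB1* (log2 FC 1.11, or 0.99 and not called with library size scaling), for which near-identical copies make the split of reads uncertain. All 10 were also higher in non-treated *jac1* than in the non-treated wild type. The means (n = 3) were 26081 against 18406 CPM for *CAB1* and 6518 against 1109 CPM for *CAB2*.

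Promoters were searched for motifs known from stress and clock genes, of which the rapid stress response element is the letters bound by CAMTA factors. In the 250 bases before the annotated start, the letters CGCGTT on either strand were found in 2.85% of all genes tested, in 7.89% of those that rose, in 11.4% of those that rose by more than 3 and in 0.881% of those that fell. The W box, TTGACC or TTGACT, the site of WRKY factors, was found in 28.3%, 36.7%, 43.5% and 26.2% of the same classes. The GCC box, GCCGCC, the site of ERFs, was found in 1.92%, 2.26%, 3.17% and 0.22%, the last being 1 of 454 genes. The evening element, AAAATATCT, followed the decreases, with 2.47% of all genes, 3.08% of those that rose and 9.69% of those that fell. Without the genes at 3 reads or fewer, the class that rose by more than 3 held the 3 motifs in 12.7%, 44.3% and 4.22%. A match is a description of letters and not of a bound site. *ERF13* and the other 9 tested group IX ERF genes had no CGCGTT in this window. Most members of the other fast lists had none either. The letters stood in 3 of 31 calcium sensor genes, 1 of 9 touch genes (*CML24*), 1 of 13 ZAT and AZF genes and 1 of 16 jasmonate signalling genes.

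**Figure D4:**
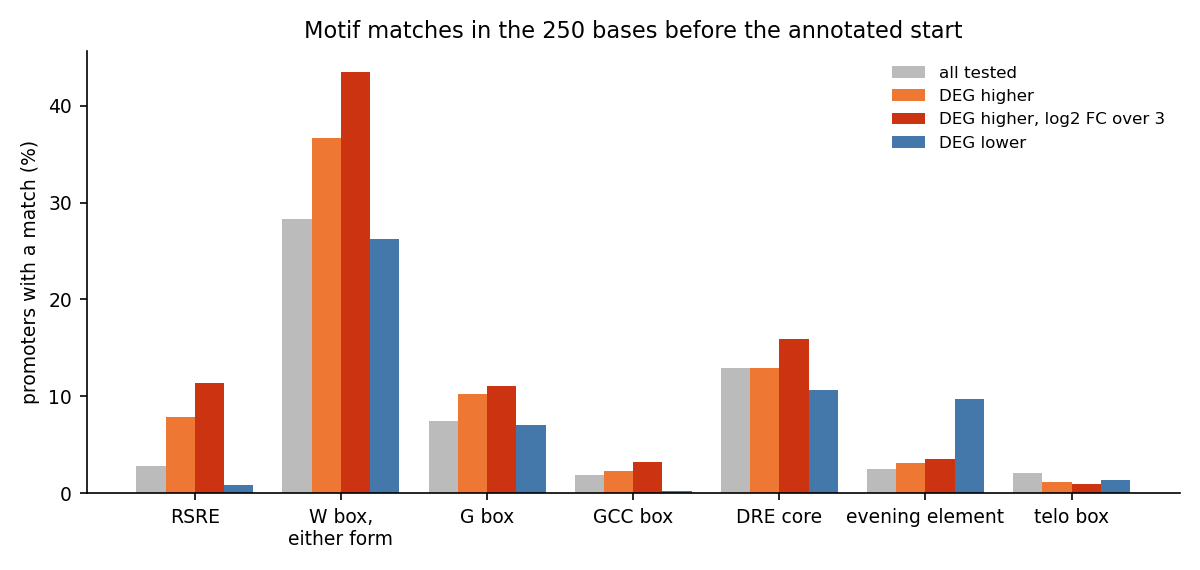
Share of promoters, in percent, with at least 1 match to each of 7 motifs in the 250 bases before the annotated start, for all 20021 genes tested (grey), DEGs that rose (orange), DEGs that rose by a log2 FC over 3 (red) and DEGs that fell (blue). The element of rapid stress responses goes from 2.85% to 11.4% between the grey and red bars, and the evening element is at 9.69% in the blue bar.

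The promoters of *TCH2* and *CNGC19*, both of which rose, show the rapid stress response element in different settings, with every CGCGTT or W box of either strand in capitals, written 5′ to 3′ on the strand of the gene (RefSeq, assembly TAIR10.1). *TCH2* (*CML24*), on the minus strand of chromosome 5, holds 2 palindromes AACGCGTT, each read on both strands, and rose from 27.6, 44.9 and 22.0 CPM to 133, 146 and 131 CPM. *CNGC19* holds 1 single element, and neither promoter holds a W box.
TCH2 chr5:14999620-14999869: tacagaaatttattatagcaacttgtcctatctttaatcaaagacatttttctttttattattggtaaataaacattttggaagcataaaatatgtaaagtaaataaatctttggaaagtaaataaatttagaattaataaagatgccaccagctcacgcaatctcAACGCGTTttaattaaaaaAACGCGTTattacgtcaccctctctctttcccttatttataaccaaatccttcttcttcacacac
CNGC19 chr3:6044752-6045001: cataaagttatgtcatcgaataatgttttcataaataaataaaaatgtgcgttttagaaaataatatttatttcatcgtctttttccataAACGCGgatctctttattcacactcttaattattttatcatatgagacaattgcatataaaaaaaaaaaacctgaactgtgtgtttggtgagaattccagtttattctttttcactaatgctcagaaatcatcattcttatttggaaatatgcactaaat

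The evening element stood in the promoters of 6 of the 13 evening clock genes and 1 of the 10 morning ones. *PRR5* (minus strand of chromosome 5) and *TOC1* are shown because their decreases were among the best resolved; the capitals mark the element, which in both reads on the strand opposite to the gene.
PRR5 chr5:8358547-8358796: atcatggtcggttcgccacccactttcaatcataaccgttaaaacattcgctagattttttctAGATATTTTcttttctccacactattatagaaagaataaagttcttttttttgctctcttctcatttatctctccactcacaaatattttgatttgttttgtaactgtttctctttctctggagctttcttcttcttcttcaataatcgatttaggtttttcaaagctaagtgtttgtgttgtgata
TOC1 chr5:24674713-24674962: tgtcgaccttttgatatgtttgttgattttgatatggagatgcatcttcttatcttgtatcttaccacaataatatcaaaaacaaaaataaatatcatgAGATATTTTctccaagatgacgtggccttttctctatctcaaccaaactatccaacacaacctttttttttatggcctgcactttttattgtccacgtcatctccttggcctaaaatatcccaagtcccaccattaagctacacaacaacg

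Genes that rose were short. Their median span from start to end was 1660 bases, against 2209 for genes that fell, 2448 for genes not called and 2388 for all genes tested, and 34.9% of them had a single exon against 15.7% of all genes. The difference grew with the size of the increase: genes that rose by 1 to 2 on the log2 scale had a median span of 1864 bases and 26.6% had 1 exon, and those that rose by more than 5 had 1080 bases and 61.7%. The median level before UV-C fell over the same classes from 2.44 to 0.157 CPM, so span and starting level move together here. Without the genes at 3 reads or fewer the last class had 1021 bases and 68.3%. A neighbour that rose was found for 20.5% of the genes that rose and for 9.7% of all genes tested. Among the AT2G07 loci of chromosome 2, where a copy of mitochondrial DNA lies, 14 of 26 rose, beside the rise in mitochondrial reads given above, and without these loci the shares were 20.4% and 9.68%.

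**Figure D5:**
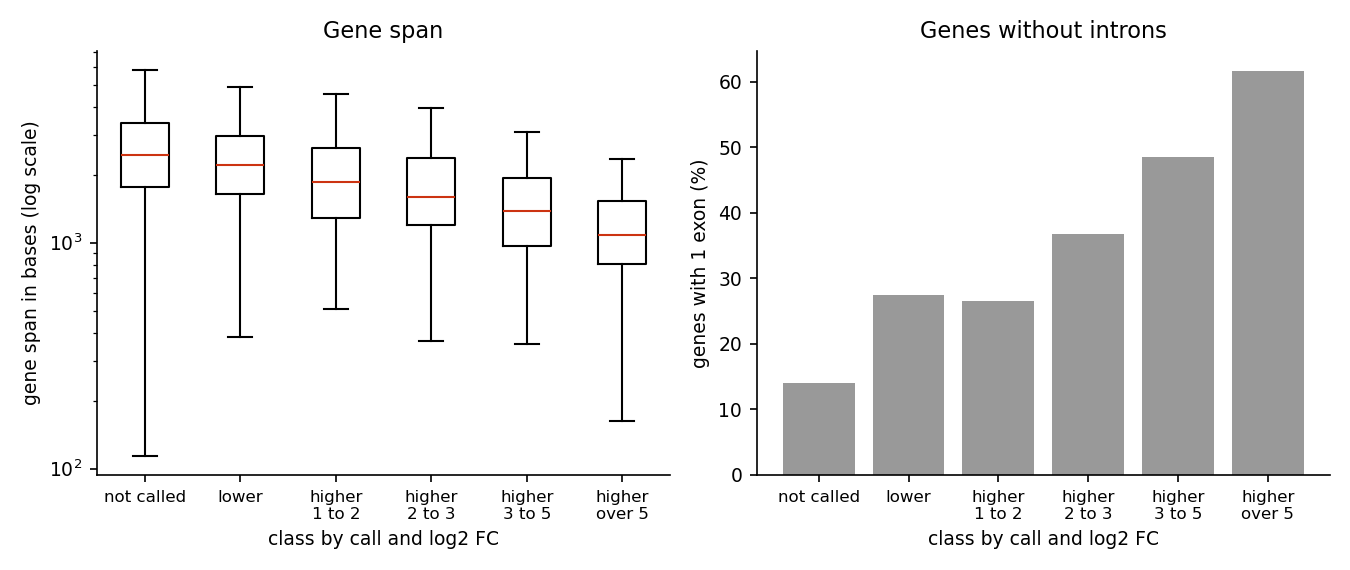
Left, gene span in bases on a log scale for genes not called, genes that fell and genes that rose, the last divided by log2 FC; boxes show quartiles with the median in red and whiskers reach 1.5 times the box. Right, percent of genes with a single exon in the same classes, rising from 14% of genes not called to 61.7% of genes that rose by more than 5.

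Most increases were shared by *jac1*. Of the 1330 genes that rose in the wild type, 940 were also called higher in *jac1*, 1286 had the same sign and 3 were called lower. Of the 454 that fell, 220 were also called lower and 17 were called higher. Over all 20021 genes tested, 1723 were called higher and 951 lower in *jac1*. The genotype by UV-C interaction, which tests the difference of the 2 responses, was called for 784 of all genes (3.92%), for 101 of those that rose and for 95 of those that fell. Of these, 71 and 75 had a log2 FC nearer to 0 in *jac1*. The genes were chosen by their wild-type call, which by itself favours a smaller change in *jac1*. This split therefore does not rank the responses of the 2 genotypes. *MPK3* rose by 2.75 in the wild type and 2.67 in *jac1* (standard error 0.12 each), with an interaction of -0.08 (standard error 0.16, adjusted p = 0.753). For *WRKY70* the responses differed: 4.40 in the wild type and 2.72 in *jac1*, an interaction of -1.69 (adjusted p = 8.69e-04), with *jac1* at 27.1 ± 7.5 CPM before and 178 ± 32 CPM after UV-C (SD, n = 3).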

How the data were processed

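Rosettes were sampled as 12 poly-A RNA-seq libraries in 4 groups of 3. The authors aligned reads with STAR 2.5.2b and deposited whole-number read counts per Araport11 gene from featureCounts (Subread 1.6.2), which at its default ignores strand and leaves out reads that fit several places or several genes. The table held 37813 genes.

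Groups followed the labels. Counts of nuclear protein-coding genes that reached 5 reads in 3 or more samples were scaled with TMM and fitted with edgeR 4.0.16 (R 4.3.3) over all 12 samples. The quasi-likelihood test was two-sided with Benjamini-Hochberg adjustment, and DEGs had an adjusted p below 0.01 and a log2 FC beyond 1 in either direction. The standard error is the absolute log2 FC divided by the square root of F. Tested on simulated data, 98 of 100 genes changed by a log2 FC of 2 and 100 of 100 changed by 3 were recovered among 19922 genes, with 0 unchanged genes called. The changed genes were drawn only from those above a read limit, with equal numbers raised and lowered. The spread between replicates was set by the level of a gene alone. Recovery of genes with very few reads was therefore not simulated, and fewer genes changed than in the data.

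Members and gene lists were chosen with earlier results of these data known. Genes were eligible to be named, and not all were, if they were among the 10 largest increases or decreases in log2 FC (mean CPM of at least 1, groups not overlapping) or in CPM, among up to 4 DEGs per list and direction, in a list of 10 or fewer, leading clock or check genes, the factor with the highest CPM of each family, or among up to 6 genes with the largest interaction. Other genes named were chosen after their values were seen. Coordinates, gene structure and promoters came from RefSeq (TAIR10.1), whose coordinates matched the files for 27435 of 27439 genes. Alternatives were other scalings, filters, thresholds and tests (DESeq2 1.42.0 among them), a replicate block and leaving out each replicate, and, chosen after seeing the data, leaving out genes with at most 3 reads per non-treated library or the AT2G07 loci. One promoter sequence is not reported here.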

Additional observations from a re-analysis of the deposited data

Results flagged for a closer look

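In 6 genes called in the wild type the UV-C response differed most between *jac1* and wild type, by the interaction term of the edgeR quasi-likelihood fit (false discovery rate under 0.01). Values are mean CPM (n = 3) and the interaction is the log2 FC in *jac1* minus that in the wild type. *AT3G09450* went from 0.764 to 5.41 CPM in the wild type and from 23.8 to 2.55 CPM in *jac1*, an interaction of -6.06. For *AT1G26790*, at 2.39 and 9.74 CPM in the wild type and 28.1 and 3.33 CPM in *jac1*, it was -5.16. The wild-type call of *AT1G26790* itself was lost without non-treated replicate 2 (log2 FC 1.76), treated replicate 1 (2.10) or treated replicate 2 (2.04). It was also lost with only the 6 wild-type samples in the edgeR fit (2.07, adjusted p = 0.0145). *PRR5* fell from 13.9 to 0.968 CPM in the wild type and had 0.938 and 2.32 CPM in *jac1*, an interaction of 5.15. *AT3G62550* had 68.9 and 17.2 CPM against 13.5 and 81.3 CPM (4.59), and *AT5G41590* 1.96 and 0.324 CPM against 0.603 and 2.27 CPM (4.50). The interaction of *FKF1* was 5.79, but its *jac1* level was near the limit of 3 reads both before and after UV-C (0.0177 and 0.0690 CPM).

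Outside the protein-coding genes, and scaled with all nuclear genes in the fit, the non-coding locus *AT3G06365* stood at 470 CPM before and 54983 CPM after UV-C in the wild type.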

How the results depend on the processing

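The numbers of genes that rose, fell and differed by genotype (1330, 454 and 784) stayed within 1.5 times under every alternative except edgeR's glmTreat, which tests against a log2 FC of 1 and left 590, 105 and 128. DESeq2 gave 1396, 449 and 863. Leaving out each replicate gave 1133 to 1352, 418 to 474 and 669 to 779. Of 1550 counts for gene lists with 3 or more calls, 1487 stayed within 1.5 times. Scaled by library size alone, the log2 FC of *YLS8* (-6.03e-05) and *CAMTA2* (-0.0203; *AT5G64220*), neither of them called, changed sign. Replicate numbers were not taken as pairing, since deviations of same-numbered wild-type libraries correlated at 0.00869, 0.147 and 0.0755. With the replicate block by sample number 1327, 461 and 795 genes were called, and by library-name number 1262, 439 and 591. Replicates pooled several rosettes, so p-values cover the spread between pools. A gene near 0 reads before UV-C allows only a lower bound on its change, and its decrease cannot be seen at this depth.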

Other observations

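With all nuclear genes in the fit, small non-coding RNA genes also changed after UV-C in the wild type. Of 91 tested snoRNA genes, whose RNAs guide ribosomal RNA modification, 26 rose and 0 fell, of 13 snRNA genes 9 rose and 0 fell, and of 340 long non-coding RNA genes 48 rose and 15 fell. The libraries were selected for poly-A RNA, and the share of ribosomal RNA reads rose in the same libraries. The 18S ribosomal RNA gene *AT3G41768* stood at 86.1 and 25658 CPM. The part of the selection step in these values was not tested.

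Among the protein-coding genes 392 (1.43%) share all of their exon bases with another annotated gene, and 388 of them (99%) had 0 reads in all 12 libraries, against 14.5% of the 20669 genes with no shared base. *CPK1* (99.3% shared), *CML30* (100%), the ERF gene *AT5G51190* (100%) and *HSFC1* (96.7%) had 0 reads in this way and are missing from the counts of their lists.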
